A study of Homo sapiens with 9 samples.

Results

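The genes described here are 10 feedback inhibitors of mitogen-activated protein kinase (MAPK) signaling, namely the dual-specificity phosphatase genes DUSP1, DUSP4, DUSP5, DUSP6 and DUSP10, the Sprouty genes SPRY1, SPRY2 and SPRY4, and the Spred genes SPRED1 and SPRED2. They were picked by gene symbol, with earlier results of these data known. Each of the 10 was found in the table, which lists 19930 genes in all, 17089 of them known and 2841 predicted. RNA sequencing was performed on human cells labelled MDA-MB-453, a breast cancer cell line, harvested 48 h after transfection. The 3 groups had 3 libraries each: si-NC, a control siRNA, and si-LINC00673-1 and si-LINC00673-2, a pair of siRNAs against the long noncoding RNA LINC00673. The library titles number the knockdown groups, and each number was taken to be that of the siRNA. The 3 libraries of a group carry no suffix, r1 or r2, and their values are given below in that order. Nothing in the labels says that they came from separate cultures, so the p-values measure the spread between these libraries, which may be technical. The knockdown is transient and was made in a single line, and the level of LINC00673 itself was not analysed here.

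When a growth factor binds its receptor tyrosine kinase, RAS, RAF and MEK pass the signal on to ERK, and parallel cascades end in the stress kinases JNK and p38. The output is held in check by genes that the pathway itself induces. DUSP proteins remove phosphate from the threonine and the tyrosine of an active MAPK, while Sprouty and Spred proteins act further up, between the receptor and RAF, and loss of such brakes is known in several cancers, breast cancer among them.

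Values are FPKM, the mapped fragments per kilobase of transcript, set relative to the depth of the library, so levels can be compared between genes. The spacing of low FPKM values gave a depth of 25.4 to 27.2 M fragments per library in the si-NC group, 24.1 to 25.3 M in the si-LINC00673-1 group and 23.1 to 24.6 M in the si-LINC00673-2 group. Of 8 markers listed for the labelled line, 4 reached 1 FPKM in each library. KRT8, KRT18, EPCAM and ERBB2 were detected, with a mean of 17.6 FPKM for ERBB2 in the si-NC libraries, whereas FOXA1, a transcription factor of luminal breast cells, lay between 0 and 0.04 FPKM in every library. The cells are therefore called by their label only. Another list held markers of blood, endothelial, stromal and basal cells and, for reference, the estrogen receptor gene ESR1. Of its 11 genes in the table, 2, 3 and 2 reached 1 FPKM in each library of the si-NC, si-LINC00673-1 and si-LINC00673-2 groups. The summed level of the 11 genes was 39.2 to 40.4, 54.8 to 58.7 and 63.6 to 68.9 FPKM. Most of that sum was CD68, while PTPRC, the marker of blood cells, stayed at or below 0.07 FPKM. The part of these markers in the results below was not tested, and in bulk RNA a change in the share of a cell type and a change in RNA per cell cannot be told apart.

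The phosphatase genes DUSP1, DUSP5 and DUSP10 and the Sprouty gene SPRY4 were higher than in the si-NC libraries with both siRNAs, DUSP6 was lower with si-LINC00673-2, and the other 5 genes were not called. A gene was called by limma on log2(FPKM + 1) when its fold change reached 1.3, which is 0.379 on the log2 scale, with an unadjusted P of at most 0.05. With si-LINC00673-1, 4 of the 10 genes were called higher and 0 lower, against 26.7% of the 12884 tested genes called in either direction, 11.1% higher and 15.6% lower. With si-LINC00673-2, 4 were called higher and 1 lower, against 34.0% in either direction, 11.0% higher and 23.1% lower. The gene called lower, DUSP6, was not called after scaling by the median ratio or after removal of the trend over GC content. DUSP10 had a mean below 1 FPKM in the si-NC libraries and passed the filter on low values through its higher values in the knockdown libraries. Among the other 9 genes, 3 were called higher with either siRNA, with 0 called lower with si-LINC00673-1 and 1 with si-LINC00673-2. The same genes were called when the adjusted P had to be at most 0.05, and 26.5% and 33.9% of all tested genes then passed. Both comparisons use the same si-NC libraries, so they are not independent of each other.

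**Figure D1:**
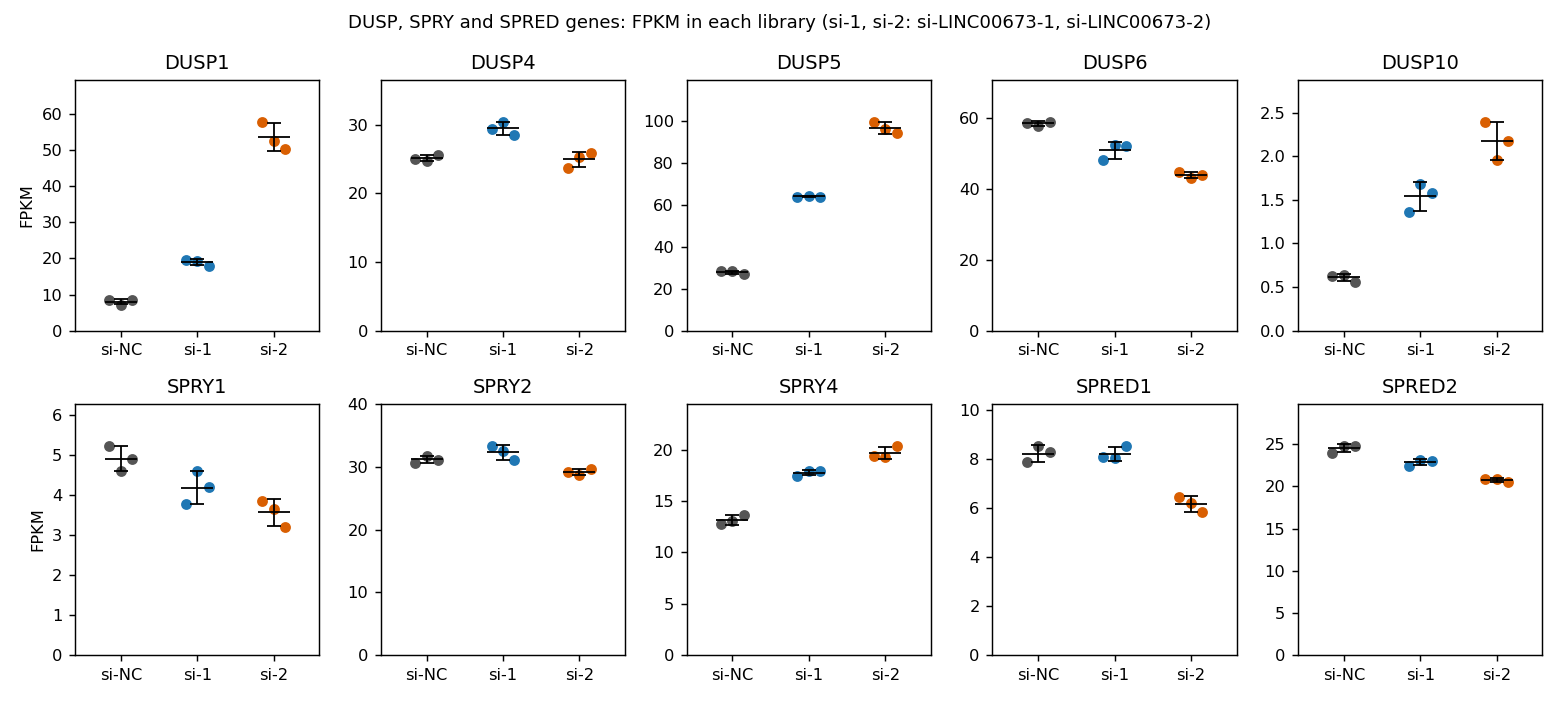
FPKM of each of the 10 genes in the 9 libraries. Points are libraries in the order without suffix, r1 and r2, long bars are group means, error bars are 1 SD (n = 3), and each vertical axis starts at 0. DUSP1 and DUSP5 stand highest in the si-LINC00673-2 libraries and lowest in the si-NC libraries, with no overlap, while SPRED2 steps slightly down across the groups.

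In the control cells, the order of the levels was DUSP6, SPRY2, DUSP5, DUSP4, SPRED2, SPRY4, SPRED1, DUSP1, SPRY1 and DUSP10, from 58.5 ± 0.603 (SD, n = 3) down to 0.61 ± 0.0436 FPKM. The libraries of DUSP4 and SPRED2 overlapped, as did those of SPRED1 and DUSP1, and these neighbours were not separated. After si-LINC00673-1, DUSP5 passed DUSP6 and stood first at 63.8 ± 0.426 FPKM. After si-LINC00673-2, DUSP5 stood first at 96.5 ± 2.74 FPKM, and DUSP1 came second at 53.7 ± 3.84 FPKM after having been near the bottom of the order in the control cells. No neighbours overlapped in either knockdown group.

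DUSP1 encodes a nuclear phosphatase of p38, JNK and ERK and is a classic immediate early gene. It lies on the reverse strand at chr5:172195093-172198203 (GRCh37.p13, the build of the deposited table). Its promoter is shown here because DUSP1 had the steepest difference of the 10 genes with si-LINC00673-2, together with those of DUSP10, which also rose, and DUSP6, which fell with si-LINC00673-2. The sequences are the 250 bases before a RefSeq transcription start (GRCh38.p14, all on the reverse strand, read 5′ to 3′ along the gene), from chr5:172771196-172771445 for DUSP1, chr1:221742090-221742339 for the start of DUSP10 farther upstream, and chr12:89352502-89352751 for DUSP6. Capitals mark a match to the cyclic AMP response element TGACGTCA and to the E-box CACGTG.
DUSP1: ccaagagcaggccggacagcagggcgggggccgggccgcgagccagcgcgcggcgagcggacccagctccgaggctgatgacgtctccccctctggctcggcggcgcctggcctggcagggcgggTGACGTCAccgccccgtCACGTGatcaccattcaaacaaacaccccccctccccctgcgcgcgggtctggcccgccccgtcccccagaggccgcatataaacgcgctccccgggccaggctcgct
DUSP10: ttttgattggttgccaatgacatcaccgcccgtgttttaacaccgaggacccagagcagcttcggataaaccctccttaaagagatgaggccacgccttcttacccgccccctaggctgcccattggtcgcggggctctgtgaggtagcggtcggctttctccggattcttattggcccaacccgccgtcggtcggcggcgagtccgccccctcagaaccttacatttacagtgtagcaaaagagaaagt
DUSP6: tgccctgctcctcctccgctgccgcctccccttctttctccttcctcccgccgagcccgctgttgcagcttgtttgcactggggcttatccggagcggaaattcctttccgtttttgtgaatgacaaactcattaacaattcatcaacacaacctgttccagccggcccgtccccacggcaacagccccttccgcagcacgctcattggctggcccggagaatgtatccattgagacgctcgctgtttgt

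RefSeq entries were found for 8 of the 10 genes, with 13 windows in all, and both strands were searched for 6 motifs. DUSP4 and DUSP5 had no entry, so their promoters were not searched. The cyclic AMP response element TGACGTCA was found in the DUSP1 window, from -125 to -118 relative to the start, and in 1.65% of 35116 promoter windows of the same length. The E-box CACGTG lay in the same window from -108 to -103, and 6.34% of all windows held it. Neither motif was found in the other 12 windows. The AP-1 site TGANTCA (6.57% of all windows), the ETS site CCGGAAGT (3.42%), the heat shock element GAANNTTC (5.78%) and the CArG box (1.16%) had no match in any of the 13 windows.

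DUSP1 measured 8.46, 7.22 and 8.34 FPKM in the si-NC libraries. It measured 19.7, 19.17 and 18.01 FPKM with si-LINC00673-1, and 57.98, 52.7 and 50.5 FPKM with si-LINC00673-2. The 3 groups were well apart, with the si-LINC00673-2 libraries far above all others. The mean was 2.37 times that of the si-NC libraries with si-LINC00673-1 and 6.71 times with si-LINC00673-2. On the log2(FPKM + 1) scale the differences were 1.15 (SE 0.066, limma adjusted P = 5e-07) and 2.6 (SE 0.066, adjusted P = 1.5e-09). Of all tested genes, 1.86% had a larger difference in size with si-LINC00673-1 and 0.171% with si-LINC00673-2.

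DUSP5, on the forward strand at chr10:112257625-112271302, encodes a nuclear phosphatase that acts on ERK and is itself induced by ERK activity. Its level was 28.19, 28.2 and 26.76 FPKM in the si-NC libraries. It was 63.81, 64.28 and 63.43 FPKM with si-LINC00673-1, and 99.51, 95.72 and 94.19 FPKM with si-LINC00673-2. The libraries of each group lay close together and the groups did not overlap. The means were 2.3 and 3.48 times that of the control, and the log2 differences were 1.18 (SE 0.032, limma adjusted P = 8.7e-09) and 1.76 (SE 0.032, adjusted P = 3.4e-10).

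DUSP10, on the reverse strand at chr1:221874762-221915518, encodes a phosphatase that prefers p38 and JNK to ERK. It measured 0.63, 0.64 and 0.56 FPKM in the si-NC libraries, which is an estimated 39 to 44 fragments each. It measured 1.36, 1.68 and 1.58 FPKM with si-LINC00673-1 (89 to 105 fragments), and 2.4, 1.96 and 2.18 FPKM with si-LINC00673-2 (125 to 151 fragments). It was the lowest of the 10 genes in every group, yet its libraries did not overlap between any pair of groups. The means were 2.53 and 3.57 times that of the control. The added 1 FPKM shrinks the difference of so low a gene, and the differences were 0.66 (SE 0.075, limma adjusted P = 3.8e-05) and 0.98 (adjusted P = 1.8e-06), against 1.2 and 1.68 when 0.1 FPKM was added in place of 1.

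DUSP6, on the reverse strand at chr12:89741602-89746636, encodes the cytoplasmic phosphatase of ERK and is widely used as a readout of ERK output. The si-NC libraries held 58.6, 57.84 and 59.03 FPKM. With si-LINC00673-1 they held 48.11, 52.37 and 52.1 FPKM, and with si-LINC00673-2, 44.81, 43.2 and 43.83 FPKM. The groups did not overlap, and DUSP6 went the opposite way from DUSP1 and DUSP5. The difference was -0.2 with si-LINC00673-1 (limma adjusted P = 0.00082), short of the fold limit, and -0.4 with si-LINC00673-2 (adjusted P = 5.3e-06, 95% interval -0.49 to -0.32), past it. Once libraries were scaled by their median ratio, the latter value was -0.3, and after removal of the trend over GC content it was -0.37, both short of the limit.

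DUSP4, a nuclear ERK phosphatase on chromosome 8, measured 25.05, 24.64 and 25.55 FPKM in the si-NC libraries. It measured 29.31, 30.44 and 28.54 FPKM with si-LINC00673-1 and 23.69, 25.26 and 25.88 FPKM with si-LINC00673-2. Its si-LINC00673-1 libraries stood above the others, and its si-LINC00673-2 libraries overlapped the control. The log2 difference was 0.22 with si-LINC00673-1 (SE 0.04, limma adjusted P = 0.00077), which does not reach a fold change of 1.3, and -0.0084 with si-LINC00673-2 (adjusted P = 0.86).

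SPRY4 was the Sprouty gene that rose. Sprouty proteins are membrane-associated inhibitors that limit RAS and RAF activation below receptor tyrosine kinases, and SPRY4 lies on the reverse strand at chr5:141689992-141704620. It measured 12.78, 13 and 13.66 FPKM in the si-NC libraries. It measured 17.44, 17.91 and 17.87 FPKM with si-LINC00673-1, and 19.38, 19.26 and 20.36 FPKM with si-LINC00673-2. All 6 knockdown libraries stood above the control libraries, and the log2 differences were 0.41 (SE 0.037, limma adjusted P = 8.8e-06) and 0.55 (adjusted P = 8.7e-07).

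The other Sprouty genes were not called. SPRY1 (chr4:124317864-124324915, forward strand) measured 5.23, 4.61 and 4.9 FPKM in the si-NC libraries, 3.77, 4.59 and 4.2 FPKM with si-LINC00673-1, and 3.85, 3.65 and 3.19 FPKM with si-LINC00673-2. The group means stood in descending order, and the libraries of the 2 siRNAs overlapped. The log2 differences were -0.19 (limma adjusted P = 0.048) and -0.38 (adjusted P = 0.0013), the latter at the edge of the fold limit on the log2(FPKM + 1) scale but within it, while the ratio of mean FPKM was 0.725. It was past the limit, at -0.45, with 0.1 FPKM added in place of 1. It also passed the limit when a library was left out, at -0.41 without si-NC r1, -0.42 without the si-LINC00673-2 library that has no suffix and -0.39 without si-LINC00673-2 r1. The same difference was -0.29 after scaling by the median ratio and -0.34 after removal of the GC trend, both short of the limit.

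SPRY2 (chr13:80910111-80915250, reverse strand), the most abundant Sprouty gene in these cells, measured 30.7, 31.81 and 31.15 FPKM in the si-NC libraries, 33.38, 32.62 and 31.09 FPKM with si-LINC00673-1, and 29.26, 28.74 and 29.64 FPKM with si-LINC00673-2. Its control and si-LINC00673-1 libraries overlapped, and its si-LINC00673-2 libraries were a little lower. The log2 differences were 0.05 (limma adjusted P = 0.22, 95% interval -0.03 to 0.13) and -0.09 (adjusted P = 0.033), and the sign of the latter turned to 0.007 after scaling by the median ratio.

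Spred proteins bind RAS and bring the RAS GTPase-activating protein neurofibromin to the membrane. SPRED1 (chr15:38545052-38649450, forward strand) measured 7.87, 8.54 and 8.27 FPKM in the si-NC libraries, 8.07, 8.03 and 8.52 FPKM with si-LINC00673-1, and 6.45, 6.21 and 5.83 FPKM with si-LINC00673-2. The si-LINC00673-1 libraries lay among the controls, while those of si-LINC00673-2 were below all 6 others. The differences were -0.0029 (limma adjusted P = 0.96, 95% interval -0.11 to 0.1) and -0.37 (adjusted P = 7.3e-05), the latter just within the fold limit on the log2(FPKM + 1) scale, while the ratio of mean FPKM was 0.749. It was past the limit, at -0.41 (adjusted P = 7.2e-05), with 0.1 FPKM added in place of 1. It was also past it, at -0.39, without the si-NC library that has no suffix and, again at -0.39, without the si-LINC00673-2 library that has none. The same difference was -0.28 after scaling by the median ratio and -0.31 after removal of the GC trend, both short of the limit.

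SPRED2 (chr2:65537985-65659656, reverse strand) measured 24.03, 24.82 and 24.79 FPKM in the si-NC libraries, 22.49, 23.14 and 23.01 FPKM with si-LINC00673-1, and 20.93, 20.85 and 20.5 FPKM with si-LINC00673-2. The steps were small and the groups did not overlap. The differences were -0.1 (limma adjusted P = 0.017) and -0.23 (adjusted P = 6.9e-05).

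**Figure D2:**
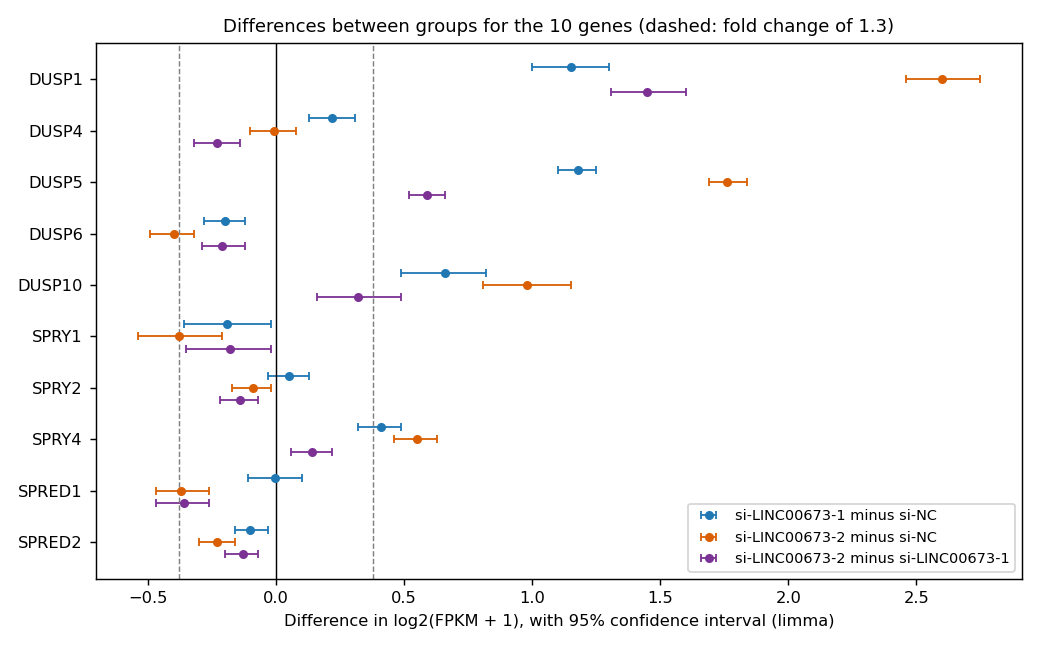
Differences between groups on the log2(FPKM + 1) scale for the 10 genes, as points with the 95% confidence interval of the limma fit. Dashed lines mark a fold change of 1.3. The intervals of DUSP1, DUSP5 and DUSP10 against si-NC lie wholly beyond the upper line, with DUSP1 at 2.6 with si-LINC00673-2. That of SPRY4 against si-NC does so with si-LINC00673-2 and lies across the line with si-LINC00673-1. The intervals of DUSP6, SPRY1 and SPRED1 with si-LINC00673-2 against si-NC lie across the lower line.

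Small but steady differences were common in these libraries, and the count without a fold limit has to be read against that. With si-LINC00673-1, 8 of the 10 genes had libraries that did not overlap those of si-NC (5 higher and 3 lower), against 70.0% of all tested genes (35.0% higher and 35.1% lower). With si-LINC00673-2, 9 of the 10 did so (4 higher and 5 lower), against 73.0% (26.9% higher and 46.1% lower). An adjusted P of at most 0.05 with no fold limit was reached by 8 and 9 of the 10, against 64.4% and 70.8% of all tested genes. An exact permutation test on 3 against 3 libraries cannot give a two-sided P below 0.1, which is the value for each of the non-overlapping genes.

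Over the 10 genes, the median difference stood at 0.14 for si-LINC00673-1 and at -0.05 for si-LINC00673-2, beside 0.003 and -0.095 for all tested genes. Without DUSP10 the medians of the other 9 genes were 0.05 and -0.09. The phosphatases and the Sprouty genes each differed in direction within the family. DUSP1 and DUSP5 rose with both siRNAs and DUSP6 fell with si-LINC00673-2. The fall of DUSP6 was short of the fold limit after scaling by the median ratio (-0.3) and after removal of the GC trend (-0.37). SPRY4 rose, while SPRY1 lay at -0.19 and -0.38 and was not called. Neither Spred gene was called, with SPRED1 at -0.0029 and -0.37 and SPRED2 at -0.1 and -0.23.

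The siRNAs were then compared with each other. Of the 10 genes, 2 were called higher with si-LINC00673-2 than with si-LINC00673-1 and 0 lower, against 7.64% of tested genes called in either direction, 2.19% higher and 5.45% lower. With an adjusted P the same 2 genes passed, against 7.38%. The difference was 1.45 for DUSP1 (limma adjusted P = 9.7e-07, 95% interval 1.31 to 1.6), a mean 2.83 times as high, and 0.59 for DUSP5 (adjusted P = 3.1e-06, 95% interval 0.52 to 0.66), a mean 1.51 times as high. DUSP10 differed by 0.32 (adjusted P = 0.0068) and SPRY4 by 0.14 (adjusted P = 0.013), both higher with si-LINC00673-2 and short of the fold limit. DUSP10 was past the limit at 0.48 with 0.1 FPKM added, at 0.39 after scaling and at 0.43 after removal of the GC trend.

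The remaining 6 genes were lower with si-LINC00673-2 than with si-LINC00673-1 by less than the fold limit. The differences were -0.23 for DUSP4, -0.21 for DUSP6, -0.18 for SPRY1, -0.14 for SPRY2, -0.36 for SPRED1 and -0.13 for SPRED2, and the limma adjusted P lay at or below 0.05 for each of them but SPRY1 (0.073). After scaling by the median ratio, the values were -0.1 for DUSP6 (adjusted P = 0.051), -0.04 for SPRY2 (adjusted P = 0.36) and -0.03 for SPRED2 (adjusted P = 0.37), beside a median of -0.081 for all tested genes before scaling. Removal of the GC trend gave -0.06 for SPRY2 and -0.05 for SPRED2, each with an adjusted P of 0.23. SPRED1 passed the limit at -0.41 with 0.1 FPKM added, and at -0.39 without the si-LINC00673-2 library that has no suffix. It was at -0.27 after scaling and at -0.23 after removal of the GC trend, both short of the limit. The libraries of the 2 siRNAs did not overlap for 9 of the 10 genes (4 higher and 5 lower), against 53.7% of all tested genes (13.1% higher and 40.6% lower), and 9 of the 10 had an adjusted P of at most 0.05 with no fold limit, against 44.0%.

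**Figure D3:**
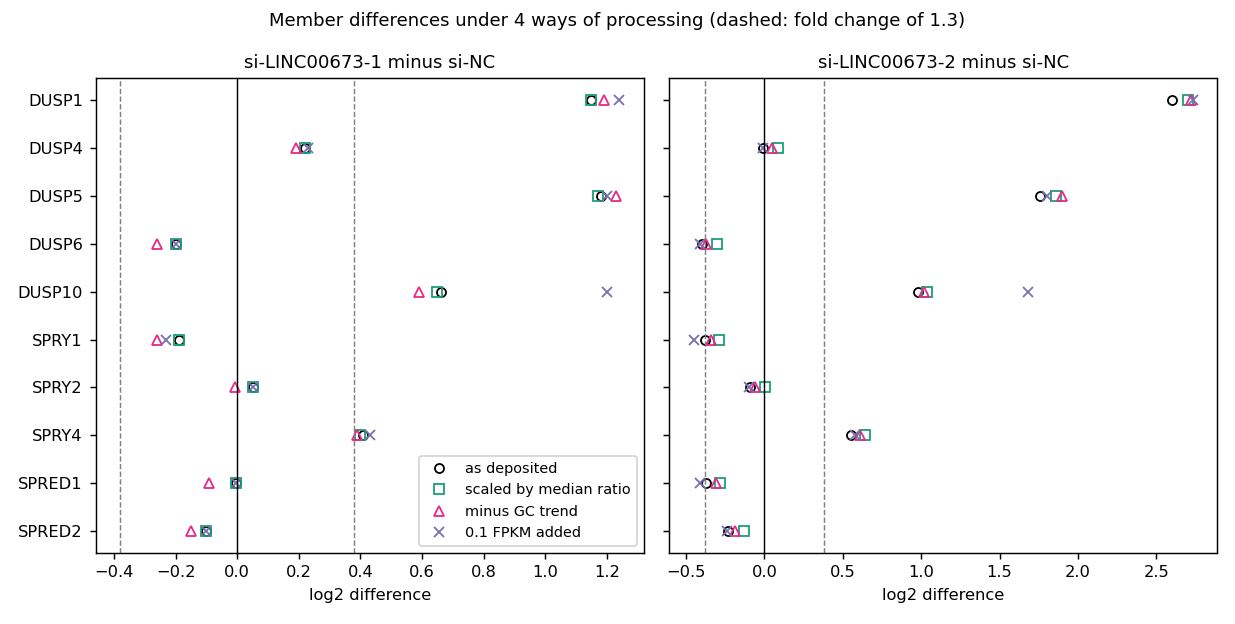
Differences from si-NC for the 10 genes under 4 ways of processing, on the log2 scale: values as deposited, scaled by the median ratio, after removal of the trend over GC content, and with 0.1 FPKM in place of 1 added before the logarithm. Dashed lines mark a fold change of 1.3 and the panels have different horizontal scales. DUSP1 and DUSP5 stay far right of the line in both panels, DUSP6 crosses the line with si-LINC00673-2, and DUSP10 moves from 0.98 to 1.68 with the smaller added value.

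The rest of the pathway was examined from the receptor down, and its counts stand beside the background of 26.7% (si-LINC00673-1) and 34.0% (si-LINC00673-2) of all tested genes called. Of 9 tested receptor genes, 3 were called higher and 3 lower with si-LINC00673-1, and 3 higher and 4 lower with si-LINC00673-2. ERBB3, the partner of ERBB2, fell with both siRNAs (-0.56 and -1.06 on the log2 scale), and so did FGFR4 (-0.53 and -0.71). EGFR rose by 0.81 and 0.51, and FGFR1 rose by 0.48 and 0.58. EGFR, counted among the receptors called higher, had a si-NC mean of 0.813 FPKM, below 1. It passed the filter on low values through its higher values in the knockdown libraries. Among 6 tested ligand genes, 2 and 3 were called higher and 0 and 1 lower, with a median of 0.2 and 0.36, and AREG, the amphiregulin ligand of EGFR, rose by 0.94 and 1.49.

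Of 18 tested genes in the core of the RAS to ERK cascade, 1 was higher and 1 lower with si-LINC00673-1, and 1 higher and 4 lower with si-LINC00673-2, with medians of -0.0069 and -0.11. KSR1, a scaffold of RAF and MEK, rose by 0.58 and 0.6, and MAP2K2, which encodes MEK2, fell (-0.52 and -0.47). In the JNK and p38 cascades, the targets of DUSP1 and DUSP10, 1 of 15 tested genes was higher and 4 lower with si-LINC00673-1, and 0 higher and 4 lower with si-LINC00673-2. MAP2K6, a kinase that activates p38, fell (-1.32 and -1.45), from a control mean of 7.09 FPKM to 2.22 and 1.95 FPKM. The p38 genes MAPK12 (p38 gamma) and MAPK11 (p38 beta) fell as well, with differences of -0.86 and -1.03 for MAPK12 and of -0.7 and -0.87 for MAPK11. MAP2K3, another kinase gene of the list, picked out after its values were seen, had a control mean of 40.96 FPKM. It was not called, at 0.15 and 0.05. MAPK14 (p38 alpha), picked out after its values were seen, had a control mean of 29.01 FPKM, against 12.9 for MAPK12 and 4.54 for MAPK11, and lay at 0.18 (limma adjusted P = 0.0018) and 0.32 (adjusted P = 2.9e-05), higher in all 6 knockdown libraries but short of the fold limit.

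Of 20 genes known to respond to ERK, 5 were called higher with si-LINC00673-1 and 7 with si-LINC00673-2, and 0 lower with either, with medians of 0.12 and 0.19. JUN, a subunit of AP-1, had means of 59.5, 119.8 and 244.5 FPKM in the si-NC, si-LINC00673-1 and si-LINC00673-2 libraries, differences of 1.0 and 2.02. The others named by the rule were PLAUR, the urokinase receptor (0.84 and 1.14), the transcription factor ETS1 (0.83 and 0.85) and the AP-1 subunit FOSL1 (0.59 and 0.8). FOS, picked out after its values were seen, was at 0.37 with si-LINC00673-1, short of the limit, and rose by 1.5 with si-LINC00673-2. Other genes of the list, picked likewise, were not called: ETV4 was at -0.25 and -0.14, ETV5 at 0.13 and -0.09, and EGR1 at 0.05 and 0.31. Between the siRNAs, 4 of the 20 were called higher with si-LINC00673-2 and 0 lower. In that comparison 7.64% of all tested genes were called in either direction, 2.19% higher and 5.45% lower.

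Other inhibitors of the pathway were described in the same way. Of 7 tested genes of other MAPK phosphatases, 1 was called higher with si-LINC00673-1 and 3 with si-LINC00673-2, with 0 lower. PPP2R1A, the scaffold subunit of protein phosphatase 2A, rose by 0.41 and 0.38. DUSP2, another nuclear MAPK phosphatase, was picked out after its values were seen: its mean was 8.83 ± 0.863 FPKM in the si-NC libraries, 9.88 ± 0.5 FPKM with si-LINC00673-1 and 33.7 ± 2.61 FPKM with si-LINC00673-2 (SD, n = 3). Its difference was 0.15 with si-LINC00673-1, not called, and 1.82 with si-LINC00673-2 (limma adjusted P = 2.7e-08). Of 10 tested genes of other feedback inhibitors, 4 and 2 were called higher and 0 lower. ERRFI1, an inducible inhibitor of the EGFR kinase, rose by 0.69 and 1.37, and LRIG1, which promotes the degradation of ERBB receptors, rose by 0.5 and 0.45.

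**Figure D4:**
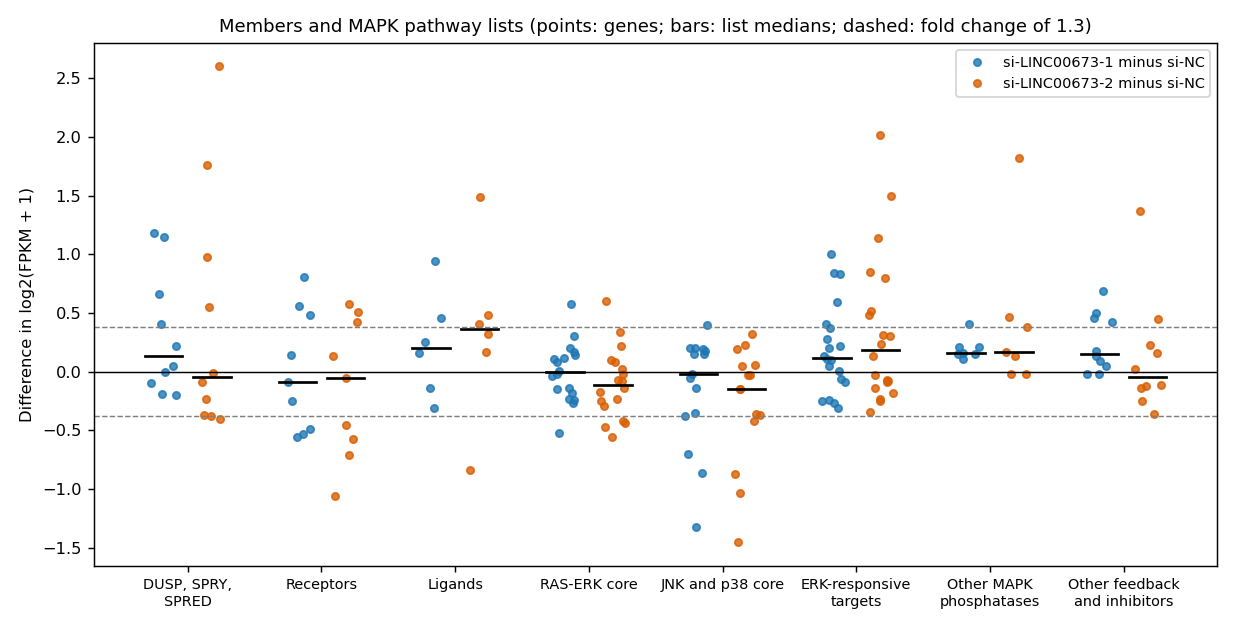
Differences from si-NC on the log2(FPKM + 1) scale for the 10 genes and for 7 lists of MAPK pathway genes. Each point is a gene, short bars are list medians and dashed lines mark a fold change of 1.3. In the JNK and p38 list, MAP2K6 lies lowest at -1.32 and -1.45, and among the ERK-responsive genes JUN lies highest at 1.0 and 2.02.

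The profile of DUSP6 was also compared with those of 11403 other known genes, by the root mean square difference of the centred log2 values over the 9 libraries. The nearest was SHC1, an adaptor that links receptors to RAS, at 0.027, with means of 62.8, 55.3 and 45.9 FPKM. SF1 followed at 0.032, MRPS16 and LMBR1 at 0.033 and CANT1 at 0.035. These values describe likeness over 9 libraries in 3 groups only.

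A short match to the seed of an siRNA can lower a transcript without full pairing, so the transcripts of the 10 genes (GENCODE release 29) were searched for the complement of bases 2 to 8 of each antisense strand. The 7-base site of si-LINC00673-1, AGGTTTC, was present in 2 of the 10 genes, SPRY1 and SPRED2, and in 21.0% of 11380 tested genes. The site of si-LINC00673-2, AATAATA, was present in 7 of the 10, against 25.8%. SPRY4 and SPRED1 held 2 copies and DUSP1, DUSP4, DUSP10, SPRY1 and SPRY2 held 1, while DUSP5, DUSP6 and SPRED2 held none. Of the 7 genes with the site, DUSP1, DUSP10 and SPRY4 rose with si-LINC00673-2, and DUSP4 (-0.0084), SPRY1 (-0.38), SPRY2 (-0.09) and SPRED1 (-0.37) were not called. Of the 3 without it, DUSP5 rose, DUSP6 fell and SPRED2 (-0.23) was not called. The part of the seed sites in these differences was not tested. The control siRNA site TGTCACG was present in 0 of the 10 genes and in 7.01% of tested genes. The median transcript length was 3402.5 bases for the 10 genes and 3344 bases for all tested genes.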

How the data were processed

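Total RNA from 9 libraries was sequenced on the BGISEQ-500 platform. The authors deposited 1 table of FPKM per gene and library, rounded to 2 decimals. Per the labels, the submitters' processing notes name Bowtie2 version 2 and GRCh37.p13, while the counting tool is not given in the sources used here. The table repeats the FPKM columns with equal values, and its 4 lines without values were dropped. The authors' own ratios and P values between groups were not used. The 12884 genes whose mean reached 1 FPKM across libraries were fitted as log2(FPKM + 1) in limma 3.58.1 (R 4.3.3). The fit held all 9 libraries, took the group as its single factor and let the variance follow the mean level (eBayes, trend). P values were adjusted by the Benjamini-Hochberg method over all tested genes. The fit was tested on simulated data. Tables, permutation tests and figures were made in Python 3.11.15 with pandas 2.3.3, scipy 1.17.1 and matplotlib 3.10.9. The depth was estimated from 545 to 589 genes per library. The fragments given for DUSP10 were estimated from that depth, and no counts were used in the fit. GC content was available for 11380 tested genes (88.3%).

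The 10 genes and the lists were chosen with earlier results of these data known. Named from the other lists were genes called the same way with both siRNAs, at most the 4 with the largest mean, and the 5 genes most like DUSP6. A marker on the cell line list is not reported here. FOS, EGR1, ETV4, ETV5, MAP2K3, MAPK14, DUSP2, HNF4A, VIL1, CDX2 and TRPS1 were named after their values were seen. Alternatives tried were 0.1 FPKM added, other filters and fold limits, an adjusted P, no trend, scaling by the median ratio, removal of the GC trend, the compared groups only, a replicate block and each library left out. Same-suffix libraries did not deviate together (correlations -0.239 to 0.104).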

Additional observations from a re-analysis of the deposited data

Results flagged for a closer look

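The effect of the 2 siRNAs differed for 9 of the 10 genes by the limma test of si-LINC00673-2 against si-LINC00673-1 (adjusted P of at most 0.05, which 44.0% of all tested genes reached). The differences on the log2(FPKM + 1) scale were 1.45 for DUSP1 and 0.59 for DUSP5, both past the fold limit. DUSP10 (0.32) and SPRY4 (0.14) were higher with si-LINC00673-2 by less than the limit. DUSP4 (-0.23), DUSP6 (-0.21), SPRY2 (-0.14), SPRED1 (-0.36) and SPRED2 (-0.13) were lower with it by less than the limit. After scaling by the median ratio, DUSP6 (-0.1, adjusted P = 0.051), SPRY2 (-0.04, adjusted P = 0.36) and SPRED2 (-0.03, adjusted P = 0.37) no longer reached that adjusted P, and after removal of the GC trend SPRY2 and SPRED2 (adjusted P = 0.23 for each) did not. The 2 siRNAs cannot be set against a shared level of knockdown here, since LINC00673 was not analysed here.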

How the results depend on the processing

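The number of the 10 genes called was 4, 5 and 2 for si-LINC00673-1 against si-NC, si-LINC00673-2 against si-NC and si-LINC00673-2 against si-LINC00673-1, and it was 3436, 4385 and 984 for all tested genes and 25, 32 and 10 for the pathway lists together. With a fold limit of 2 the counts in the same order were 2, 2 and 1 for the 10 genes, 366, 604 and 40 for all genes and 1, 9 and 3 for the lists. With no fold limit they were 8, 9 and 10 for the 10 genes, 8724, 9396 and 6697 for all genes and 65, 65 and 57 for the lists. With 0.1 FPKM added, 7 of the 10 genes were called with si-LINC00673-2, SPRY1 and SPRED1 being the additional ones, and 4 of the 10 genes and 1656 of all genes were called between the siRNAs. A mean of at least 5 FPKM removed SPRY1 and DUSP10 and left 2211, 2714 and 547 calls among all genes, since fewer genes were tested. After scaling by the median ratio, and likewise after removal of the GC trend, DUSP6 was no longer called. Either setting left 4 of the 10 genes called higher and 0 lower with si-LINC00673-2. Removal of the GC trend left 568 calls among all genes between the siRNAs, and the cause was not tested.

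Leaving out each library in turn gave 4 to 4, 5 to 7 and 2 to 3 calls among the 10 genes, 3339 to 3592, 4296 to 4464 and 939 to 1117 among all genes, and 23 to 26, 31 to 35 and 9 to 12 in the lists. The sign turned for small values only: DUSP4 with si-LINC00673-2 was 0.09 after scaling and 0.05 after removal of the GC trend, SPRY2 was 0.007 with si-LINC00673-2 after scaling and -0.0083 with si-LINC00673-1 after removal of the GC trend. Without single libraries, DUSP4 with si-LINC00673-2 ranged from -0.03 to 0.03 (0.0046 without si-NC r2) and SPRED1 with si-LINC00673-1 from -0.03 to 0.02 (0.0008, 0.0077 and 0.01 among these values). Scaling by the median ratio moved the median of all genes with si-LINC00673-2 from -0.095 to -0.007 and the lower share of its calls from 67.82% to 53.71%, and between the siRNAs that share went from 71.34% to 39.05%. The GC trend brought the lower share to 49.59%, 48.14% and 45.25% in the 3 comparisons, in place of 58.32%, 67.82% and 71.34%.

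With the suffix as a replicate block, the counts were 4, 5 and 2 for the 10 genes and 3449, 4400 and 988 for all genes. The suffixes did not pair the libraries. An adjusted P, no filter, no trend and a fit of the compared groups alone changed no call among the 10 genes. Depth bears most on DUSP10, which had an estimated 39 to 44 fragments in the si-NC libraries.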

Other observations

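Genes outside the pathway were looked up after the marker check and were chosen after their values were seen. HNF4A, a transcription factor of liver and gut epithelium, had means of 53.0, 53.6 and 43.7 FPKM in the si-NC, si-LINC00673-1 and si-LINC00673-2 libraries. VIL1, the brush border protein villin, had means of 119.0, 88.7 and 86.0 FPKM, and the intestinal factor CDX2 had 8.1, 6.83 and 3.64 FPKM. TRPS1, which breast epithelium expresses, had means of 0.00667, 0.01 and 0.0167 FPKM. Beside FOXA1 at 0.04 FPKM or less, GATA3 had means between 0.43 and 0.77 FPKM. The values are given without a name for the cells, and the identity of the cells was not tested.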
